A study of Mus musculus with 6 samples.

Results

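The antioxidant and glutathione genes are a list of 34 mouse genes, taken by name and not by a rule on their measured values. They were chosen with earlier results of these data known. Their products make, use or restore the reducing power that removes superoxide and peroxides. All 34 were in the table of 22310 genes. They were read as 4 arms: superoxide dismutases and catalase (4 genes), the peroxiredoxin-thioredoxin arm (11 genes), the glutathione arm (15 genes), and the regulators Nfe2l2 and Keap1 with the classic targets Nqo1 and Hmox1 (4 genes).

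Primary cells of MMTV-PyMT mammary tumors were plated, sorted 1 day later by flow cytometry, and sequenced as stranded mRNA libraries. Metastasis-initiating cells (MICs) were Lin-CD24+CD90+ and non-MICs were Lin-CD24+CD90-, with 3 libraries of each, numbered 1 to 3 in both groups. Libraries that share a number are called a pair here. In this model the mouse mammary tumor virus promoter drives the polyoma middle T antigen in the mammary epithelium, so all libraries come from tumors of the same transgene. The mice were female and of the FVB/N background, their genotype is labelled WT, their cell line is labelled MMTV-PyMT, and no age is in the labels. The methods of the study give an age range in weeks for its MMTV-PyMT mice. Cells of both groups were grown in DMEM/F12 with FBS, insulin, hEGF and antibiotics. Lin stands for CD45, CD31 and Ter119, which mark blood, endothelial and erythroid cells and were gated out. The comparison asks whether the cells that can found metastases differ from the other tumor cells in their defence against oxidants. The study treats its replicates as separate experiments or tumors, and nothing in the labels says which libraries came from the same animal.

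The deposited values are gene counts scaled to the same total in every library, and they were turned back into whole reads. MIC replicates 1, 2 and 3 held 32458499, 31467281 and 51759769 reads on genes, and non-MIC replicates 1, 2 and 3 held 33069114, 33126717 and 49904738. A read is worth between 0.676 and 1.11 units of the deposited value, so a value is close to a read number. Of the 34 genes, 32 had a median of at least 100 reads, and the exceptions were Gpx3 with a median of 50 reads and Gpx7 with 24. Differences are given as log2(value + 1) in MICs minus that in non-MICs, and adding 1 draws the differences of low values towards 0.

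Superoxide dismutases turn superoxide into hydrogen peroxide, which catalase, the peroxiredoxins and the glutathione peroxidases then reduce. Peroxiredoxins draw their electrons from thioredoxin and glutathione peroxidases from glutathione, and both carriers are restored by reductases that use NADPH. The transcription factor NRF2, made by Nfe2l2, is held at low levels by KEAP1 and raises many of these genes through the antioxidant response element. In mammary epithelial cells, loss of contact with the matrix is known to raise reactive oxygen species, which is why these systems are followed in metastasis.

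No member passed the test between MICs and non-MICs when the libraries were treated as unpaired, and with the pairs taken into account Gpx8, a glutathione peroxidase of the endoplasmic reticulum, was the member that passed. Without a block, limma called 0 of the 34 genes and 0 of 22310 genes (0%) at an adjusted p-value under 0.05. Before adjustment, limma had 0 members and 322 genes with a p-value under 0.05. On recovered reads, edgeR called 0 genes (0%), with 295 whose p-value before adjustment was under 0.05, and DESeq2 called 1 gene (0.00452%), which was not a member. With the replicate number as a block, limma called 29 genes (0.13%) and 0 members, edgeR called 315 genes (1.41%) and 1 member, and DESeq2 called 133 of the 14957 genes it adjusted (0.889%) and 1 member. The member was Gpx8 in both. In limma with the block, p before adjustment was under 0.05 for 3 members, Prdx4, Gpx1 and Gpx8, all higher in MICs, which is 8.82% of the list beside 11.2% of all genes. On recovered reads with the block the shares were larger: edgeR had 8 members (23.5%, beside 11.7% of all genes) and DESeq2 had 6 (17.6%, beside 8.58%), all higher in MICs. Of the 34, 32 lie above the median of mean values, where the shares were 17% in limma, 18.9% in edgeR and 15.5% in DESeq2. Without Gpx2, Gpx3 and Gpx7, the shares of the other 31 members were 9.68% in limma, 19.4% in edgeR and 19.4% in DESeq2. The shares of all genes and of those above the median count both directions, while the members were all higher. In edgeR with the block, 1315 of all genes were higher and 1306 lower at this threshold. Above the median, 977 were higher and 1134 lower. In limma with the block, 1169 of all genes were higher and 1332 lower. These shares were not tested.

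Counts of members over the pairs, unlike the shares of members above, were even in both directions. Higher in MICs in all 3 pairs were 6 members (17.6%, beside 12.5% of all genes): Prdx3, Prdx5, Txn1, Gpx1, Gpx8 and Glrx. Lower in all 3 pairs were also 6 (17.6%, beside 18.8% of all genes): Sod2, Txnrd1, Txnrd2, Srxn1, Gsr and Nfe2l2. Among genes above the median of mean values, 13.1% were higher and 28.5% lower in every pair. The first group holds peroxidases, thioredoxin and glutaredoxin. The second holds the dismutase of mitochondria, 3 NADPH-dependent reductases, which also act on disulfides, sulfiredoxin and the gene of NRF2. A difference in function between the groups was not tested. Under other scalings, chosen for these counts after seeing the data, the lists shifted. After rescaling by TMM factors 8 were higher and 4 lower in every pair, with Prdx5 lost and Prdx1, Prdx4 and Hmox1 gained above, and Txnrd1, Srxn1 and Gsr lost and Gclm gained below. After quantile normalization 7 were higher and 5 lower, with Txn1 lost and Nqo1 and Hmox1 gained above, and Srxn1 lost below. The groups did not overlap for 2 members, Prdx3 and Txn1, beside 6.24% of all genes.

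**Figure D1:**
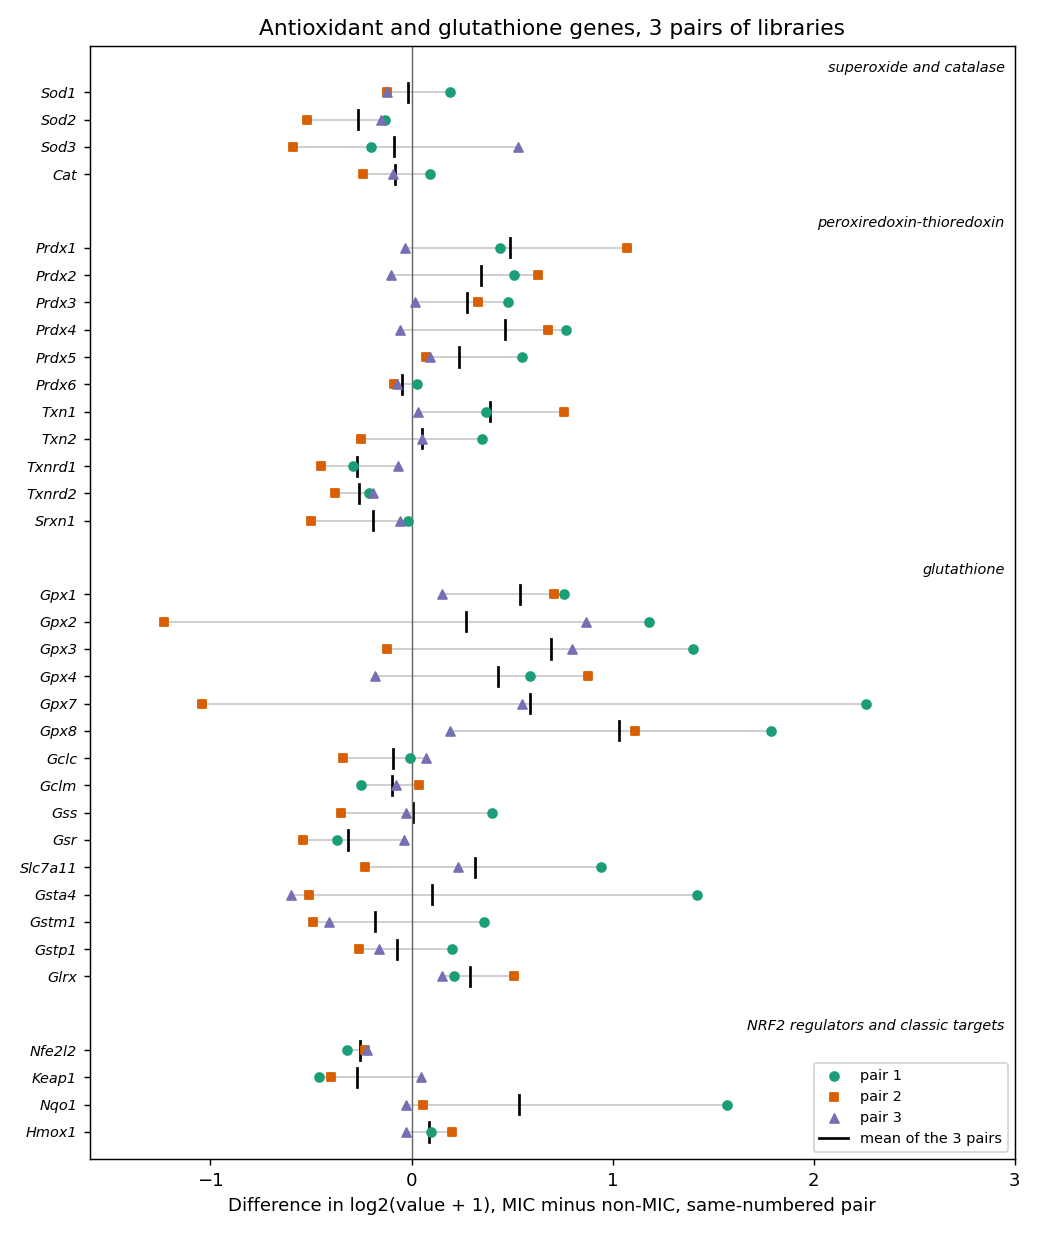
Difference in log2(value + 1) between the MIC and the non-MIC library of the same number for each of the 34 genes, by arm, with the mean of the 3 pairs as a black bar. Gpx8 has the largest mean at 1.03, the 3 pairs of Nfe2l2 lie between -0.32 and -0.22, and pair 3 (triangles) lies near 0 for most peroxiredoxins.

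The pairs did not show the same picture. In pairs 1, 2 and 3 the median difference of the 34 genes was 0.36, -0.23 and -0.03, where all genes had -0.02, 0.04 and -0.05. Of the 34, 24 were higher in the MIC library in pair 1, 13 in pair 2 and 14 in pair 3. Of all 22310 genes, 10091, 11943 and 7986 were higher in these pairs. Differences between the pairs were also larger than those between the groups. For 28 of the 34 genes the range of the pair means exceeded the difference between MICs and non-MICs, as it did for 19243 of the 22310 genes, and for 22 members pair 2 had the highest mean.

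Markers of other cell types differed between groups and between pairs in ways that stand beside these values. All 10 basal and myoepithelial markers were in the table, and 7 were higher in MICs in every pair. With the block, edgeR called 7 of the 10 and limma 6. Their summed value was 557275, 26938 and 79341 in MIC replicates 1, 2 and 3 against 163279, 24558 and 48331 in non-MIC replicates 1, 2 and 3, with Acta2, smooth muscle actin, the most abundant by its mean. Acta2 itself stood at 230574, 3765 and 9839 in MICs against 48582, 724 and 1581 in non-MICs. Pair 1 was thus far richer in Acta2 than the others, but not in every marker of the list. Krt14 had 29274, 2946 and 20642 in MICs against 20730, 5507 and 19135 in non-MICs. Trp63 had 1124, 380 and 319 in MICs against 298, 257 and 230 in non-MICs. In pair 2 Krt14, Krt17 and Oxtr were lower in MICs, by -0.90, -0.12 and -0.67. The 10 luminal epithelial markers summed to 661507, 235878 and 506811 in MICs against 783529, 302909 and 479063 in non-MICs, led by Krt18, and 4 were lower in every pair, although TMM rescaling left 2. With the block, Elf5 fell in edgeR (log2 difference -1.11, adjusted p = 0.000449) and DESeq2 (-1.08, adjusted p = 0.00253) but did not pass in limma (adjusted p = 0.139). Since these are bulk samples, fewer cells of a type and less RNA per cell cannot be told apart.

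The fibroblast list holds Thy1, which encodes CD90, the gate itself, and its values of 1509, 301 and 755 in MICs against 16.9, 21.1 and 12.6 in non-MICs follow the labels. The 9 other fibroblast markers summed to 2168, 673 and 2011 in MICs against 1160, 742 and 588 in non-MICs. Col1a2 led them, at 1450, 142 and 650 in MICs against 367, 95.1 and 102 in non-MICs. Of the 9, 4 were higher in every pair and the others were not. Col1a1 differed by -0.19, -0.62 and 1.65 in pairs 1, 2 and 3, and Col3a1 by -0.36, -0.33 and 2.67. Pdgfrb differed by -0.15, 0.17 and 1.87, and Fap, at low values, by -1.86, 0.057 and 0.90. Dpt, also low, differed by -1.01, 0.000 and 1.60. With the block, Col1a2 passed in edgeR (log2 difference 1.81, adjusted p = 7.89e-12) and DESeq2 (adjusted p = 2.42e-05) but not in limma (adjusted p = 0.0729), and Dcn passed in edgeR (1.88, adjusted p = 0.0152) but not in DESeq2 (adjusted p = 0.251) or limma (adjusted p = 0.418). Dpt was at 0 in MIC replicate 2 and non-MIC replicates 2 and 3, and Lum was at 0 in non-MIC replicate 2. With Thy1 included, 5 were higher in every pair, and 3 after quantile normalization, and the 10 fibroblast markers summed to 3677, 974 and 2766 in MICs against 1177, 763 and 600 in non-MICs.

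Immune markers differed by pair more than by group. The 9 that were in the table summed to 207, 2093 and 408 in MIC replicates 1, 2 and 3 against 228, 1258 and 477 in non-MIC replicates 1, 2 and 3, so both libraries of pair 2 were the highest. Lyz2 was the most abundant, at 1635 and 834 in pair 2. Ptprc, which encodes CD45, was at 0 in both libraries of pair 1 and reached 10 at most. Adgre1, Cd79a and Itgam were at 0 in MIC replicate 1, Itgam and Fcer1g in non-MIC replicate 1, and Adgre1 in non-MIC replicate 3. The 7 endothelial markers, led by Esam, summed to 78.7, 63.4 and 57.5 in MICs against 42.3, 62.3 and 80.7 in non-MICs, with Emcn at 0 in non-MIC replicate 2. The 4 adipocyte markers, led by Pparg, summed to 7.55, 42.3 and 22.3 in MICs against 27.5, 66.6 and 30.2 in non-MICs, with Plin1 at 0 in MIC replicates 1 and 3 and non-MIC replicate 2 and Plin4 at 0 in MIC replicate 1 and non-MIC replicate 2. The part of other cell types in any value of the 34 genes was not tested.

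**Figure D2:**
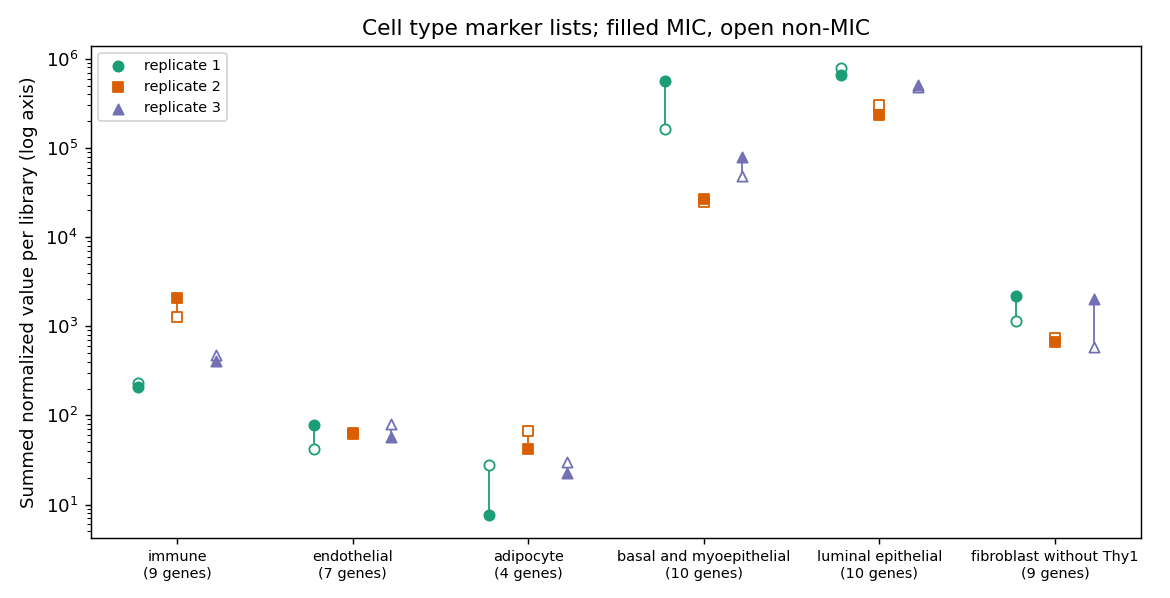
Summed normalized value of each marker list per library on a log axis, with MICs as filled and non-MICs as open symbols and a line joining the pair. The basal and myoepithelial sum is highest in pair 1 (557275 and 163279) and the immune sum is highest in pair 2 (2093 and 1258).

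Before the arms are taken apart, their levels can be set on a common scale as the value per kilobase of the principal transcript, as the median of the 6 libraries. Thioredoxin (Txn1) had 20208 and Prdx1 had 17905 on this scale. Next came Sod1 at 7842, Prdx2 at 7004, Prdx6 at 6873, Gpx4 at 5753 and Gpx1 at 5537, of which Gpx4 is uncertain because a pseudogene shares its sequence. The thioredoxin reductases were below the thioredoxins they serve, with 3488 for Txnrd1 beside Txn1, and 226 for Txnrd2 beside 2492 for Txn2. Glutathione reductase (Gsr) had 2245. The lowest medians were those of Slc7a11 (54.7), Sod3 (41.3), Gpx3 (33.9) and Gpx7 (13.6), although Sod3 was low in pairs 1 and 3 only.

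In the superoxide and catalase arm, MICs and non-MICs did not differ beyond the spread. Sod1, the cytosolic copper-zinc enzyme, had values of 5115, 5119 and 4547 in MIC replicates 1, 2 and 3 against 4497, 5573 and 4937 in non-MIC replicates 1, 2 and 3. All 6 libraries lay close together and the groups overlapped. The log2 difference was -0.02 ± 0.18 (SE without a block, n = 3 per group), or ± 0.16 (SE with the block). Sod2, the manganese enzyme of mitochondria, had 1732, 1327 and 1462 in MICs against 1892, 1908 and 1618 in non-MICs, lower in MICs in every pair by -0.13, -0.52 and -0.15. Sod2 was 0.832-fold in MICs by the mean (adjusted p = 1 in limma, 0.553 with the block). Cat, the peroxisomal catalase, had 4184, 6261 and 3868 in MICs against 3931, 7372 and 4127 in non-MICs, with pair 2 highest in both groups.

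Sod3, the secreted dismutase, varied more by pair than any other gene of this arm. It had 143, 2657 and 82.5 in MICs against 165, 4000 and 56.8 in non-MICs. Both libraries of pair 2 held many times the level of the others, and the pair means spanned 5.55 log2 units. The groups differed by -0.09 ± 1.76 (SE without a block), or ± 0.24 (SE with the block). Pair 2 was also the pair with the highest immune sum, and the part of that in the level of Sod3 was not tested. The median difference of the 4 genes was -0.08, with -0.02, -0.38 and -0.11 in pairs 1, 2 and 3, and turned to 0.02 without pair 2. When a single library was left out, which unbalances the pairs, the direction turned for Sod1, Sod3 and Cat. With the block and a whole pair left out it turned for Sod1 and Sod3, and Sod1 also turned under quantile normalization and in DESeq2.

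In the peroxiredoxin-thioredoxin arm, the thiol peroxidases other than Prdx6 and both thioredoxins had higher means in MICs, and the reductases had lower ones. The log2 difference was above 0 for 7 of the 11 genes, 3 were higher in every pair and 3 lower, and the median was 0.24, with 0.37 in pair 1, 0.07 in pair 2 and -0.06 in pair 3, and 0.08 when pair 1 was left out. No gene of the arm passed the test in limma, with or without the block, or in edgeR and DESeq2 on all 6 libraries.

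Prdx1, the most abundant cytosolic peroxiredoxin, had 47802, 67945 and 40588 in MIC replicates 1, 2 and 3 against 35129, 32275 and 41560 in non-MIC replicates 1, 2 and 3. MIC replicate 2 stood above the rest, and pair 3 did not differ. The gene, ENSMUSG00000028691 at chr4:116685544-116700822 on GRCm38, was 1.41-fold in MICs by the mean, with pair differences of 0.44, 1.07 and -0.034. The log2 difference was 0.49 ± 0.24 (SE with the block), with an interval from -0.02 to 1.01 and an adjusted p of 0.452 in limma with the block. Prdx2 followed the same course, with 14582, 19110 and 9167 in MICs against 10245, 12336 and 9859 in non-MICs. Its exons overlap those of Junb and Rnaseh2a on the other strand, so its values are uncertain where strand was not used in counting. Prdx4, the peroxiredoxin of the endoplasmic reticulum, had 3061, 2400 and 1889 in MICs against 1795, 1497 and 1967 in non-MICs, again higher in pairs 1 and 2 and level in pair 3 (log2 difference 0.46, adjusted p = 0.423 in limma with the block).

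Prdx3, the peroxiredoxin of the mitochondrial matrix, had 4504, 3693 and 3491 in MICs against 3226, 2933 and 3455 in non-MICs. Every MIC library was above every non-MIC library, although in pair 3 by 0.015 only, and the adjusted p was 0.532 in limma with the block. Prdx5 had 5871, 8308 and 2987 in MICs against 4009, 7917 and 2802 in non-MICs, so that the pairs lay further apart than the groups, and its exons overlap those of Trmt112 on the other strand. In pair 2 the difference of Prdx5 turned from 0.070 to -0.039 after TMM rescaling. Prdx6, which also has phospholipase activity, was level, at 13291, 15903 and 20074 in MICs against 13051, 16910 and 21114 in non-MICs.

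Txn1, the cytosolic thioredoxin, had 22481, 32763 and 21486 in MICs against 17397, 19398 and 20992 in non-MICs. The groups did not overlap, MIC replicate 2 was the highest, and the pair differences were 0.37, 0.76 and 0.034, the last of which turned to -0.032 after quantile normalization. The log2 difference was 0.39, with an interval from -0.04 to 0.82 and an adjusted p of 0.477 in limma with the block. Txn2, the thioredoxin of mitochondria, had 6621, 5036 and 4349 in MICs against 5177, 5973 and 4193 in non-MICs, with no common direction.

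Txnrd1, the cytosolic reductase that restores Txn1, had 9297, 15119 and 12032 in MICs against 11347, 20681 and 12604 in non-MICs. Each MIC library was below its partner, by -0.29, -0.45 and -0.067, and pair 2 was highest in both groups. After TMM rescaling pair 3 stood at 0.003, so its direction there depends on the scaling. The log2 difference of Txnrd1 (ENSMUSG00000020250, chr10:82833951-82897712) was -0.27 with an interval from -0.65 to 0.11 and an adjusted p of 0.565 in limma with the block. Txnrd2, the mitochondrial reductase, had 657, 494 and 627 in MICs against 758, 643 and 715 in non-MICs, lower in every pair under each scaling. Srxn1, sulfiredoxin, which repairs overoxidized peroxiredoxins, had 1550, 3375 and 2055 in MICs against 1570, 4761 and 2140 in non-MICs, with pair 2 highest. In this arm the direction turned when a single library was left out for Prdx5, Prdx6, Txn2 and Srxn1, and for Txn2 alone with the block and a whole pair left out.

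**Figure D3:**
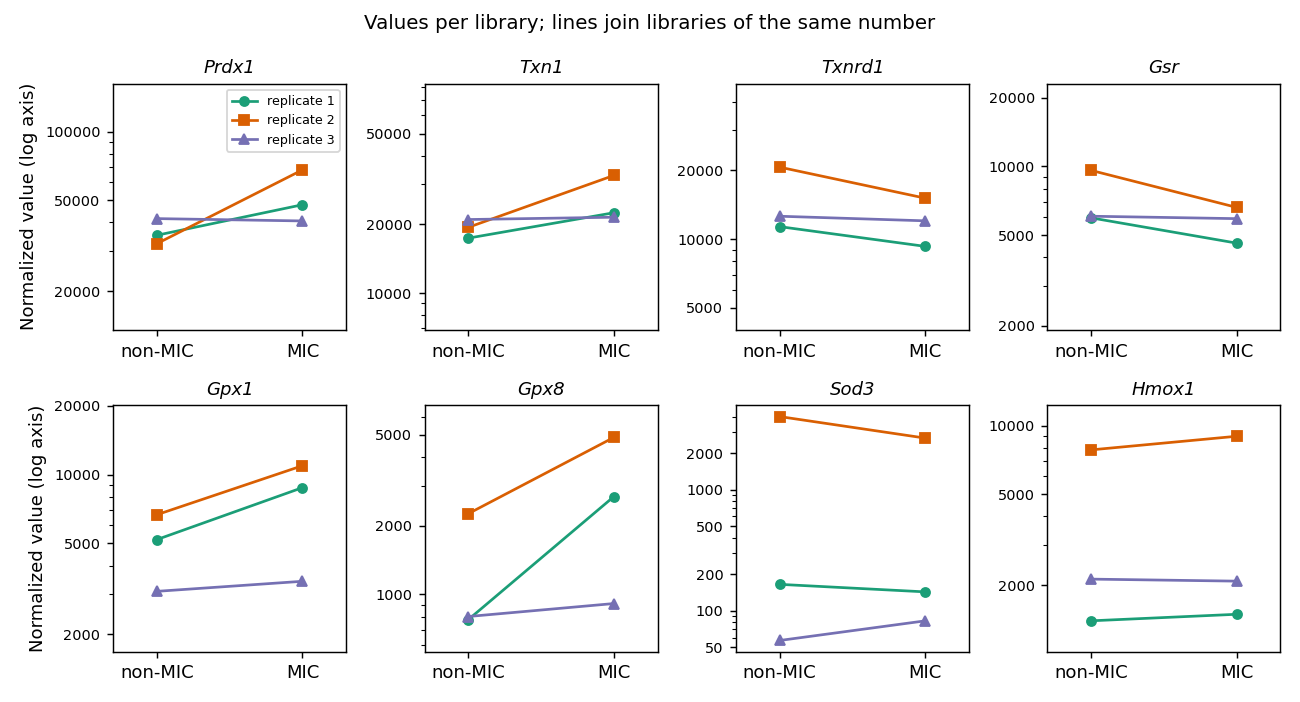
Normalized value per library for 8 members on log axes, with a line joining the non-MIC and the MIC library of each number. Gpx8 goes up in the 3 pairs (775 to 2684, 2258 to 4876 and 800 to 912), Txnrd1 and Gsr go down in each, though not in pair 3 after TMM rescaling, and Sod3 and Hmox1 are set apart by pair 2 rather than by group.

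In the glutathione arm, all peroxidases were higher in the MIC library of pair 1, and the enzymes of glutathione synthesis differed little by their means. The log2 difference was above 0 for 10 of the 15 genes, 3 were higher in every pair and 1 was lower, and the median was 0.27, with 0.59, -0.26 and 0.07 in pairs 1, 2 and 3. The median became 0.10 with a pseudocount of 0.1, and also among genes above the median, and turned to -0.13 without pair 1. Pair 1 was also the pair with the largest log2 ratio of the basal and myoepithelial sums, 1.77, against 0.13 and 0.72 in pairs 2 and 3. The median difference of those markers was closer between pairs, at 2.09, 1.76 and 1.19, and their part in these values was not tested.

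Gpx8 (ENSMUSG00000021760, chr13:113042753-113046410) had 2684, 4876 and 912 in MIC replicates 1, 2 and 3 against 775, 2258 and 800 in non-MIC replicates 1, 2 and 3. The MIC library was the higher in all 3 pairs, by 1.79, 1.11 and 0.19, and the groups overlapped because pair 3 was low and pair 2 high in both. The 3 MIC libraries averaged 11.16 ± 1.23 (SD, n = 3) in log2(value + 1) and the 3 non-MIC libraries 10.13 ± 0.88 (SD, n = 3), a 2.04-fold difference. Gpx8 passed in edgeR with the block (log2 difference 1.03, adjusted p = 7.85e-05) and in DESeq2 with the block (1.06, adjusted p = 0.00901), and did not pass in limma with the block (1.03, interval 0.51 to 1.56, adjusted p = 0.228) or in any fit without it. Over the alternatives its adjusted p in edgeR with the block went from 3.61e-07 without pair 3, through 0.00182 without pair 2, to 1 without pair 1, where the log2 difference was 0.63. The call was lost without pair 1, when edgeR with the block called 33 genes in all, against 489 and 783 without pairs 2 and 3. What sets the difference of Gpx8 was not tested.

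The other peroxidase of the endoplasmic reticulum, Gpx7, had 151, 0 and 21 in MICs against 30.7, 1.06 and 14 in non-MICs. In pair 2 it was not detectable at this depth, since 0 reads allow a value of up to 3.34 in MIC replicate 2 and 1 read was found in the non-MIC library. Its mean log2 difference of 0.59 turned to -0.22 with a pseudocount of 0.1, and was 1.4 in edgeR and 1.3 in DESeq2 with the block, so it depends on how the reads of pair 2 are weighed. Gpx1, the main cytosolic glutathione peroxidase, had 8776, 10949 and 3411 in MICs against 5195, 6677 and 3082 in non-MICs, higher in the MIC library of each pair by 0.76, 0.71 and 0.15. The groups overlapped because pair 3 was the lowest, and the 1.45-fold difference had an adjusted p of 0.417 in limma and 0.194 in edgeR, both with the block. Gpx4, which reduces lipid peroxides in membranes and guards against ferroptosis, had 8395, 9334 and 4801 in MICs against 5591, 5065 and 5442 in non-MICs. Of the 75-base windows of its transcript, 62.4% also occur in a transcript of another gene, mainly the pseudogene Gpx4-ps2, so its values are uncertain.

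Gpx2, best known from the epithelium of the gut, had 451, 127 and 52.1 in MICs against 199, 299 and 28.1 in non-MICs, with pair differences of 1.18, -1.23 and 0.87. Gpx3, the plasma peroxidase, had 65.8, 38.9 and 179 in MICs against 24.3, 42.3 and 102 in non-MICs. For both, pair 2 went against the other pairs, and the differences were smaller than the spread between libraries.

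The enzymes of glutathione synthesis had no common direction. Gclc, the catalytic subunit of glutamate-cysteine ligase, had 2375, 3593 and 4061 in MICs against 2392, 4546 and 3869 in non-MICs, and the modifier subunit Gclm had 1830, 3341 and 2396 in MICs against 2178, 3252 and 2528 in non-MICs. Their intervals in limma with the block included 0, from -0.45 to 0.26 for Gclc and from -0.44 to 0.25 for Gclm. Gss, glutathione synthetase, had 1586, 3260 and 1073 in MICs against 1202, 4147 and 1094 in non-MICs. Gclm shares exon positions with Gm17494 and Gm6061, and Gss with Acss2 and Gssos2, which makes their reads uncertain to that extent. Slc7a11, which imports cystine for this synthesis, had 294, 602 and 545 in MICs against 153, 705 and 464 in non-MICs, with non-MIC replicate 1 the lowest and differences of 0.94, -0.23 and 0.23.

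Gsr, the reductase that restores glutathione, was lower in the MIC library of each pair. It had 4611, 6611 and 5904 in MICs against 5951, 9607 and 6051 in non-MICs, which are differences of -0.37, -0.54 and -0.036, the last turning to 0.034 after TMM rescaling. The mean was 0.804-fold in MICs, the lowest among the 34 genes, with an adjusted p of 0.496 in limma with the block. Glrx, glutaredoxin, which uses glutathione to reduce mixed disulfides, had 533, 524 and 1756 in MICs against 460, 367 and 1583 in non-MICs. It was higher in MICs in every pair under each scaling, while pair 3 held about the same excess over the other pairs in both groups.

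The transferases of the list, which join glutathione to electrophiles, had no common direction. Gsta4, known for its action on lipid aldehydes, had 1487, 126 and 1221 in MICs against 555, 180 and 1853 in non-MICs, with pair 2 low in both groups and the pairs in disagreement. Gstm1 had 473, 604 and 360 in MICs against 368, 847 and 479 in non-MICs. Gstp1 had 2129, 1770 and 1136 in MICs against 1849, 2122 and 1274 in non-MICs, and 57.7% of the 75-base windows of its transcript also occur in Gstp2 or Gstp-ps, so its values are uncertain. In this arm the direction of 10 of the 15 genes turned when a single library was left out: Gpx2, Gpx7, Gclc, Gclm, Gss, Slc7a11, Gsta4, Gstm1, Gstp1 and Glrx. With the block and a whole pair left out, 6 turned: Gpx2, Gpx7, Gclc, Gss, Gsta4 and Gstp1.

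Both regulators had lower means in MICs, and the direction of the classic targets in pair 3 depended on the scaling. Nfe2l2 (ENSMUSG00000015839, chr2:75675513-75704641) had 3884, 6353 and 4513 in MICs against 4842, 7438 and 5241 in non-MICs. Each MIC library was below its partner under each scaling, by -0.32, -0.23 and -0.22, or by -0.28, -0.34 and -0.15 after TMM rescaling, and the groups overlapped because pair 2 was high in both. The mean was 0.839-fold, with an interval of the log2 difference from -0.60 to 0.09 and an adjusted p of 0.55 in limma with the block. Keap1, the adaptor that sends NRF2 to degradation, had 1459, 1518 and 1210 in MICs against 2009, 2001 and 1171 in non-MICs, lower in pairs 1 and 2, and it shares exon positions with Gm16754 on the other strand.

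Nqo1, a quinone reductase, had 1716, 1484 and 835 in MICs against 579, 1427 and 850 in non-MICs. Its difference lay in pair 1 (1.57), where non-MIC replicate 1 was the lowest library, and the other pairs gave 0.056 and -0.026, which became -0.052 and 0.044 after TMM rescaling and 0.072 and 0.049 after quantile normalization. Hmox1, which breaks down heme, had 1489, 8975 and 2080 in MICs against 1394, 7822 and 2123 in non-MICs. Like Sod3 it was set by pair 2, where immune markers were also highest, and the groups differed by 0.09 ± 0.16 (SE with the block). Its difference in pair 3 turned from -0.029 to 0.040 after TMM rescaling and 0.018 after quantile normalization. The median difference of the 4 genes was -0.08, with -0.11, -0.09 and -0.03 in the pairs. In this arm the direction turned for Hmox1 when a single library was left out, and for no gene with the block and a whole pair left out.

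Leaving out a pair, an alternative chosen after seeing the data, brought other members over the threshold in edgeR with the block. Without pair 3, 6 members passed, beside 3.51% of all genes: Prdx1 (log2 difference 0.77, adjusted p = 0.0286), Prdx4 (0.74, adjusted p = 0.0434), Gpx1 (0.75, adjusted p = 0.0364), Gpx4 (0.75, adjusted p = 0.0368), Nqo1 (0.82, adjusted p = 0.0336) and Gpx8. Without pair 2, 5 members passed, beside 2.19% of all genes: Gpx2, Gpx3, Gpx7, Nqo1 and Gpx8. Without pair 1, 0 members passed. Limma with the block called 0 members in each of these cases. All members that passed were higher in MICs.

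NRF2 binds the antioxidant response element, so the promoters of the members were searched for its core, TGACNNNGC, on both strands. Windows from 250 bases before to 50 after the start came from RefSeq on GRCm38.p6 and covered 28 of the 34 genes. Sod3, Prdx6, Gclc, Gsr, Gsta4 and Hmox1 had none. The core was found in 6 of the 28 genes (21.4%), beside 3781 of 27025 genes with a window (14%), and in 4071 of all 32851 windows (12.4%). Among the members' windows it was found in 6 of 35 (17.1%). The 6 matches are shown because they include Nfe2l2 itself and genes from each side of the thioredoxin cycle. The match of Txnrd1 lies in 1 of its 3 windows, at a start inside the gene, and the start used for Nfe2l2 is uncertain because the end of its window was not found in a GENCODE transcript of the gene. Each is read on the strand of its gene, with the core in capitals and 10 bases on either side, and the number gives the position of its first base relative to the start.
Nfe2l2, chr2:75704885-75704913, minus strand, at -240: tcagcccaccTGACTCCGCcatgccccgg
Gclm, chr3:122245413-122245441, plus strand, at -134: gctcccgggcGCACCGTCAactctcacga
Prdx1, chr4:116685456-116685484, plus strand, at -133: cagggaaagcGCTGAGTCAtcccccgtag
Srxn1, chr2:152105542-152105570, plus strand, at 28: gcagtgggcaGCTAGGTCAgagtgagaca
Txnrd1, chr10:82859104-82859132, plus strand, at -92: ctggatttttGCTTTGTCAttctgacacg
Sod1, chr16:90220696-90220724, plus strand, at -56: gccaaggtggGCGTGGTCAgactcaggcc
In Nfe2l2 the core reads along the gene's strand, and in the others it reads along the opposite strand. Among the genes that hold the core, Prdx1 had a log2 difference of 0.49 and the others were below 0. These were Txnrd1 at -0.27, Nfe2l2 at -0.25, Srxn1 at -0.19, Gclm at -0.10 and Sod1 at -0.02. For all 6 the interval in limma with the block included 0. A match is a description of these letters and no measure of binding.

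Further genes of the pathway, in 8 lists, give the surroundings of the 34. Among the 23 other glutathione transferases, 4 were higher and 1 lower in every pair and 0 were called. These are 17.4% and 4.35%, beside 12.5% and 18.8% of all genes. Gstk1 had 566, 507 and 232 in MICs against 392, 297 and 209 in non-MICs (log2 difference 0.48, adjusted p = 0.431 in limma with the block), and Gstz1, an isomerase of tyrosine breakdown, had 866, 1232 and 806 against 562, 816 and 853.

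Of the 21 genes of glutathione turnover and export, 2 were higher and 2 lower in every pair. Each is 9.52%, beside 12.5% higher and 18.8% lower among all genes. Chac2, which degrades glutathione in the cytosol, had 381, 539 and 305 in MICs against 171, 189 and 278 in non-MICs. All 3 MIC libraries were above all non-MIC libraries, with differences of 1.15, 1.51 and 0.13. Chac2 was 1.9-fold in MICs and passed in edgeR with the block (log2 difference 0.93, adjusted p = 0.0112), but not in DESeq2 with the block (adjusted p = 0.0658) or in limma with it (adjusted p = 0.377). In edgeR with the block its log2 difference was 0.79 without pair 1 (adjusted p = 0.97), 0.68 without pair 2 (adjusted p = 0.212) and 1.35 without pair 3 (adjusted p = 0.00231), so the call was lost with the difference still above 0. Ggt1, which cleaves glutathione outside the cell, had 190, 14.5 and 88.6 in MICs against 43.4, 8.45 and 79.3 in non-MICs, led by MIC replicate 1.

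Glutaredoxins and thioredoxin-fold proteins, 16 genes, had 4 higher (25%) and 2 lower (12.5%) in every pair and 0 called. For all genes the shares were 12.5% and 18.8%. After TMM rescaling, and also after quantile normalization, 6 of the 16 were higher and 1 lower in every pair. Glrx3, which handles iron-sulfur clusters, had 7157, 12611 and 4561 in MICs against 4109, 7294 and 4673 in non-MICs, and Txndc17, a relative of thioredoxin, had 7600, 9237 and 5945 against 4938, 4816 and 5811. Both repeated the course of Prdx1 and Txn1, higher in pairs 1 and 2 and level in pair 3.

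Supply of NADPH, which feeds both reductases, had 1 of 14 genes higher and 5 lower in every pair (35.7%, beside 18.8% of all genes and 28.5% of those above the median), and 0 called. After TMM rescaling 2 of the 14 were lower in every pair, beside 3668 of all 22310 genes. G6pdx, the entry enzyme of the pentose phosphate pathway, had 4823, 4805 and 7362 in MICs against 5792, 7328 and 8422 in non-MICs, lower by -0.26, -0.61 and -0.19 (adjusted p = 0.449 in limma with the block). Idh2, which makes NADPH in mitochondria, had 3107, 1387 and 3594 against 3312, 2636 and 3796, with differences of -0.092 (0.031 after quantile normalization), -0.93 and -0.079, so that its mean came largely from pair 2.

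Among 27 other partners, repressors and targets of NRF2, 1 was higher and 3 were lower in every pair and 0 were called. These are 3.7% and 11.1%, beside 12.5% and 18.8% of all genes. After TMM rescaling 3 of the 27 were higher and 3 lower in every pair, and after quantile normalization 3 and 2. Mafg, a small Maf partner of NRF2, had 1842, 3678 and 2860 in MICs against 3433, 3873 and 3771 in non-MICs, and Aldh3a1, an aldehyde dehydrogenase, had 385, 568 and 375 against 396, 970 and 635. Both were lower in every pair, although Aldh3a1 stood at 0.001 in pair 1 after TMM rescaling, with log2 differences of -0.46 and -0.52 and adjusted p of 0.423 for each in limma with the block.

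The 19 genes of selenoprotein machinery and other selenoproteins had 10 higher in MICs in every pair (52.6%, beside 12.5% of all genes and 13.1% of those above the median) and 4 lower (21.1%, beside 18.8% and 28.5%), with 8 higher and 4 lower after TMM rescaling. In limma with the block, p before adjustment was under 0.05 for 9 of the 19 (47.4%, beside 11.2% and 17%), 7 higher and 2 lower, and 0 were called. Selenof, a selenoprotein of the endoplasmic reticulum, had 18534, 22402 and 9311 in MICs against 11065, 9849 and 8372 in non-MICs, with differences of 0.74, 1.19 and 0.15 (adjusted p = 0.388 in limma and 0.0732 in edgeR, both with the block). Msrb1, which repairs oxidized methionine, had 6128, 1658 and 1485 against 2720, 1403 and 1147, higher by 1.17, 0.24 and 0.37 (adjusted p = 0.417 in limma with the block). Of the 6 members that are themselves selenoproteins, Gpx1, Gpx2, Gpx3 and Gpx4 had higher means in MICs and Txnrd1 and Txnrd2 lower ones.

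Metal binding and ferroptosis guard genes, 15 in all, had 4 higher (26.7%) and 1 lower (6.67%) in every pair. For all genes the shares were 12.5% and 18.8%. Tfrc, the transferrin receptor, had 18002, 15910 and 15612 in MICs against 13109, 11247 and 13562 in non-MICs, with all MIC libraries above all non-MIC libraries (adjusted p = 0.438 in limma with the block). Msrb3, another methionine sulfoxide reductase, had 12279, 4791 and 2838 against 6952, 3314 and 1872, higher by 0.82, 0.53 and 0.60, and passed in DESeq2 with the block (adjusted p = 0.0311) but not in edgeR (0.0778) or limma (0.25) with it.

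The 17 producers of superoxide and peroxide had 6 higher (35.3%) and 2 lower (11.8%) in every pair and 0 called. After TMM rescaling 5 of the 17 were higher and 3 lower. Over all genes 12.5% were higher and 18.8% lower in every pair, and over those above the median 13.1% and 28.5%. Cyba, a membrane subunit of the NADPH oxidases, had 455, 878 and 632 in MICs against 343, 553 and 589 in non-MICs. Maoa, a mitochondrial monoamine oxidase that gives off hydrogen peroxide, had 2333, 1568 and 2965 against 1267, 1147 and 2559, higher by 0.88, 0.45 and 0.21 (adjusted p = 0.417 in limma with the block).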

How the data were processed

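RNA of sorted MICs and non-MICs was sequenced by the authors from stranded mRNA libraries with paired reads of 75 bases. The reads were aligned to the mouse release GRCm38, also named mm10, and counted per gene. The methods of the study give the transcriptome of this release as the target. The methods of the study name Bowtie2 and samtools, and the submitters' processing notes name STAR and HTSeq, all with no version, and whether the counting used strand is not given in the sources used here. The labels and the methods of the study name different versions of the RNA isolation kit. The deposited signal is the gene count scaled by the authors to a total of 35000000 in each library, with genes kept that were expressed in at least 3 of the 6 libraries.

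Dividing by the value of 1 read gave whole reads, within 0.01, for 99.99% to 100% of the values of a library. Read numbers speak for counting error alone, since molecular identifiers were not used to merge copies. Symbols, positions and exons came from GENCODE M21, which named 22161 of 22310 genes. The 34 genes and the lists were chosen with earlier results of these data known.

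MICs were compared with non-MICs by limma 3.58.1 in R 4.3.3 (lmFit, eBayes with a trend) on log2(value + 1), without a block, and p-values were adjusted by Benjamini and Hochberg over all 22310 genes, with calls under 0.05. The recovered reads went into edgeR 4.0.16, by quasi-likelihood, and into DESeq2 1.42.0, each with and without the replicate number as a block. Tests over a list were not run, and lists are described by counts and medians. The pairing comes from the replicate numbers that both groups share, and was checked on the values. Departures from the group means, over 11155 genes, correlated at 0.791, 0.849 and 0.889 for libraries of the same number and between -0.678 and -0.199 for different numbers. Intervals are 95% intervals of limma with the block.

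All 34 members are named. Of the pathway lists, genes are named with an adjusted p under 0.05 in limma or edgeR with the block, and the 2 genes of each list with the smallest p in limma with the block among those with a median of at least 20 reads. Of the marker lists, the most abundant gene and genes at 0 are named, and 1 list is not reported here. Other genes were named after their values were seen. The same code was also run on simulated tables whose answer was set. Tables and plots were made with pandas 2.3.3, numpy 2.4.6 and matplotlib 3.10.9 in Python 3.11.15.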

Additional observations from a re-analysis of the deposited data

How the results depend on the processing

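Over all genes, 0 were called by limma without a block, also with pseudocounts of 0.1 and 10, genes above the median, quantile normalization, TMM rescaling, each library left out, or in edgeR without a block. DESeq2 without a block called 1. The replicate block called 29 in limma, 315 in edgeR and 133 in DESeq2. Without both libraries of number 1, 2 or 3 the replicate block called 11, 59 and 0 in limma and 33, 489 and 783 in edgeR, the latter chosen after seeing the data. Members called were 0 in these fits except 1 (Gpx8) in edgeR and in DESeq2 with the replicate block, 5 in edgeR with the block without pair 2 and 6 without pair 3. The block changed no other call of a member. Members higher in every pair numbered 6 to 12 and members lower 7 to 13 when a pair was left out, an alternative chosen after seeing the data, against 6 and 6 with all pairs. These counts grow by construction, since fewer pairs have to share a direction.

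The median differences of the arms moved by less than the spread over pairs, except -0.02 for the regulators and classic targets after quantile normalization. Without a pair they ranged from -0.20 to 0.02, 0.08 to 0.31, -0.13 to 0.35 and -0.09 to -0.06 in the order of the arms. Of the 34 log2 differences, 16 kept their sign in every setting and 18 turned when a library was left out, which also unbalances the pairs. Their ranges were Sod1 -0.093 to 0.062, Sod3 -1.62 to 1.70, Cat -0.29 to 0.21, Prdx5 -0.098 to 0.65, Prdx6 -0.22 to 0.12, Txn2 -0.11 to 0.19, Srxn1 -0.53 to 0.27, Gpx2 -0.75 to 1.00, Gpx7 -1.08 to 2.54, Gclc -0.36 to 0.14, Gclm -0.32 to 0.11, Gss -0.43 to 0.63, Slc7a11 -0.32 to 0.78, Gsta4 -0.73 to 1.24, Gstm1 -0.44 to 0.16, Gstp1 -0.29 to 0.18, Glrx -0.29 to 0.94 and Hmox1 -0.70 to 0.82. Of the 16 named pathway genes, Idh2 (-0.63 to 0.057) and Msrb1 (-0.060 to 0.96) turned.

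Signs also turned for Sod1 (0.027) and Gstp1 (0.005) after quantile normalization, Gpx7 (-0.22) with a pseudocount of 0.1, Gss in edgeR (-0.15) and DESeq2 (-0.13) without a block, and Sod1 in DESeq2 without (0.009) and with (0.013) the block. With the replicate block and without pair 1 they turned for Txn2 (-0.097), Gpx2 (-0.18), Gpx7 (-0.25), Gss (-0.19) and Gsta4 (-0.56), without pair 2 for Sod1 (0.034), Sod3 (0.16), Gclc (0.030) and Gstp1 (0.019), and without pair 3 for Sod1 (0.032) and Gpx2 (-0.028). The cause was not tested. Gpx3 and Gpx7 were not among the genes above the median. Depth limits Gpx7, with 0 and 1 reads in pair 2.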

Other observations

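Some selenoproteins of the endoplasmic reticulum were singled out after the values were seen and were not tested as a group. Selenof, Selenok, Selenot and Selenos were higher in MICs in every pair under each scaling, and so was Selenom, except for -0.097 in pair 2 after TMM rescaling. Selenon was lower by -0.26, -0.43 and -0.033, of which the last became 0.029 after quantile normalization and 0.037 after TMM rescaling. Selenoi, from the same pathway list, had no common direction, at -0.14, 0.084 and -0.019. Selenos had 4233, 3953 and 3290 in MIC replicates 1, 2 and 3 against 2397, 2871 and 2964 in non-MIC replicates 1, 2 and 3, and Selenot had 8975, 12721 and 6707 against 6465, 6227 and 6464. Ero1l, the oxidase that makes hydrogen peroxide there during disulfide formation, was level, at 2288, 2469 and 3035 in MICs against 2266, 2405 and 3000 in non-MICs, with differences of 0.014, 0.038 and 0.017, of which pair 2 became -0.070 after TMM rescaling.

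Nnt, the transhydrogenase of the mitochondrial inner membrane that makes NADPH for the glutathione and thioredoxin reductases of mitochondria, was singled out after its values were seen. It had 12.9, 24.5 and 16.2 in MICs against 16.9, 20.1 and 25.9 in non-MICs, low in all 6 libraries. Secisbp2, which selenoprotein synthesis needs, had 388, 765 and 520 in MICs against 777, 908 and 714 in non-MICs, lower in every pair under each scaling (log2 difference -0.57) while 10 of the 19 genes of its list were higher in every pair.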
